A study of Mus musculus with 38 samples.

Results

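Ugt8a, Aspa, Trf, Car2 and Efhd1 are 5 genes of metabolism and ion handling in mature oligodendrocytes, the myelin-forming cells of the brain. None encodes a structural protein of the myelin sheath, though the product of Ugt8a makes a lipid of it. The 5 genes were chosen by name from the gene symbols of the array, with earlier results of these data known. Counts of members set beside the share of all genes are therefore descriptions. Each member had 1 probe set, out of 15644 genes measured. All 5 passed the filter on dim genes, among 9799 genes that did.

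RNA was hybridized to 38 one-colour Affymetrix mouse arrays after a 2-cycle amplification with biotin labelling. Bound RNA is the RNA held by tagged ribosomes, purified from 1 marked cell population by translating ribosome affinity purification (TRAP), and total RNA is the unpurified RNA of the same kind of tissue. From the cortex of adult wild-type mice came bound RNA of 5 reporter lines, n = 3 arrays each: Snap25 line JD362 (neurons), Aldh1L1 (astrocytes), Pdgfra line JD340 (oligodendrocyte progenitors), Cnp1 line JD368 (mature oligodendrocytes) and Olig2 (cells of the oligodendrocyte lineage), with n = 5 arrays of cortex total RNA. Gliomas were induced in other mice and form 3 models, called Pdgf, Pdgf Cre and Recruited. Each model has n = 3 arrays of RNA bound in its Olig2 cells and n = 3 of its total RNA. All mice were of mixed C57BL/6J, FVB and Swiss-Webster background, and each cortex sample pooled at least 2 of them. The labels used here do not spell out the agents or alleles behind the tumour names, nor the age of the mice beyond adult, nor whether tumour samples were pooled, so p-values measure the spread between these samples only.

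The 5 genes belong to different pathways. Ugt8a encodes the ceramide galactosyltransferase that makes galactocerebroside, the main glycolipid of myelin, which Gal3st1 turns into sulfatide. Aspa encodes aspartoacylase, which splits N-acetylaspartate, a compound made in neurons by Nat8l, into aspartate and acetate, and loss of the human gene causes Canavan disease. Trf encodes transferrin, the carrier that binds ferric iron and delivers it to cells with the transferrin receptor. In brain, oligodendrocytes are a main source of its transcript. Car2 encodes a cytosolic carbonic anhydrase, which interconverts carbon dioxide and bicarbonate and is found in oligodendrocytes and also in astrocytes. Efhd1 encodes a calcium-binding EF-hand protein of mitochondria.

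The stretches just before the transcription start are shown for the members with an entry in the RefSeq promoter table (GRCm38.p6), because Aspa and Efhd1 had the most similar levels over the 12 groups of any pair of members and Ugt8a differed from both. Ugt8a, Aspa and Efhd1 matched, and Trf and Car2 did not. Each line gives the 250 bases before the start on the gene's strand, 5′ to 3′, with matches to the 6 motifs searched in capitals. The Ugt8a stretch is chr3:125938653-125938902 on the minus strand, the Aspa stretch chr11:73324638-73324887 on the minus strand and the Efhd1 stretch chr1:87264103-87264352 on the plus strand. The table gives 1 start a gene: that of Efhd1 is the first base of its RefSeq span, that of Ugt8a lies just inside its span, and that of Aspa lies well inside, so the Aspa stretch is not the one before its outermost start.
Ugt8a: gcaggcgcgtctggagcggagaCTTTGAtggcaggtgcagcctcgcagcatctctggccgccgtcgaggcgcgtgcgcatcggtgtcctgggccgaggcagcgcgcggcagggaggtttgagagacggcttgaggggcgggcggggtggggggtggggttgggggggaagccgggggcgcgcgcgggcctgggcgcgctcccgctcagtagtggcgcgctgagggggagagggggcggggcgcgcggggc
Aspa: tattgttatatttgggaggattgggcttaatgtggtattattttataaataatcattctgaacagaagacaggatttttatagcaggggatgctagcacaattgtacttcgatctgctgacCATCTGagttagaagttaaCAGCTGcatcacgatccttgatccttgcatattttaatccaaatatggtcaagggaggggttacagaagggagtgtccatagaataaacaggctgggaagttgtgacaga
Efhd1: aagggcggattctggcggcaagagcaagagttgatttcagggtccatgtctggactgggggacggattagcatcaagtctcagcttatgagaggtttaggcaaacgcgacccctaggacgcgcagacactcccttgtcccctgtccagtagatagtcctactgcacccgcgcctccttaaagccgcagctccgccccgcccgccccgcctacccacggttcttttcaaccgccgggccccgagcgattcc
The motifs, read on both strands, were the Sox core forms ACAAAG and ACAATG, the Myrf form CTGGCAC, the E-box forms CAGCTG and CAGATG and the Tcf/Lef form CTTTGA, with no overlap between matches in these stretches. Ugt8a held 1 match, CTTTGA, between 228 and 223 bases before the start, a motif found in 13.8% of the 32851 windows of the table. Aspa held 2 matches, CAGATG on the reverse strand 129 to 124 bases before the start and CAGCTG 110 to 105 bases before it, motifs found in 14.4% and 13.0% of windows. None of the 6 was found in the Efhd1 stretch. ACAAAG (in 16.5% of windows), ACAATG (in 10.7%) and CTGGCAC (in 4.19%) were in none of the 3 stretches. GC content was 76.8% for Ugt8a, 38.8% for Aspa and 60.8% for Efhd1, against a median of 52.4% over all windows (quartiles 45.2% and 61.2%). The pair with the most similar levels thus shared no motif of this set, and its members lay far apart in GC content. A match or its lack is a description of letters in this window only.

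Levels are log2 values after quantile normalization over all 38 arrays, and a level under log2 50 (5.64) is called dim. A gene is called higher or lower for a difference of at least 2-fold with a limma adjusted p under 0.05. Where 1 side was dim, "at least" marks a fold computed with every array under that limit set to it. In bulk RNA, fewer cells of a type and less RNA per cell cannot be told apart.

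Reporter genes other than Snap25 stood well above cortex total RNA in their own population. Aldh1l1 was at 11.45 in astrocytes and 8.26 in cortex total RNA, and Pdgfra at 10.35 in progenitors against 4.77. Cnp was at 14.23 in mature oligodendrocytes against 9.23, and Olig2 at 12.47 in cortical Olig2 cells against 6.18. Snap25 barely differed, at 15.46 in neuron bound RNA and 15.22 in cortex total RNA. Of 13 neuron markers, 0 were higher and 1 was lower in neurons than in cortex total RNA. In other purified samples Snap25 was still at 14.67 (progenitors) and 14.04 (mature oligodendrocytes). Of the 13 neuron markers, 10 were above the dim limit in progenitors and 12 in mature oligodendrocytes. Against cortex total RNA, 12 were lower and 0 higher in progenitors, and 10 lower and 0 higher in mature oligodendrocytes. Ttr, a choroid plexus gene, stood at 13.46 (SD 1.42) in progenitors and 6.01 (SD 3.36) in cortex total RNA. Folr1 and Kl of the same tissue were near the lowest value of the arrays in both groups (2.13 and 2.08 in progenitors). Progenitor arrays also had the largest 3′ to 5′ difference of the actin control, 6.48 ± 0.47 (SD, n = 3), which ranged from 2.69 to 4.57 over the means of the other groups. The part of these in the results was not tested.

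**Figure D1:**
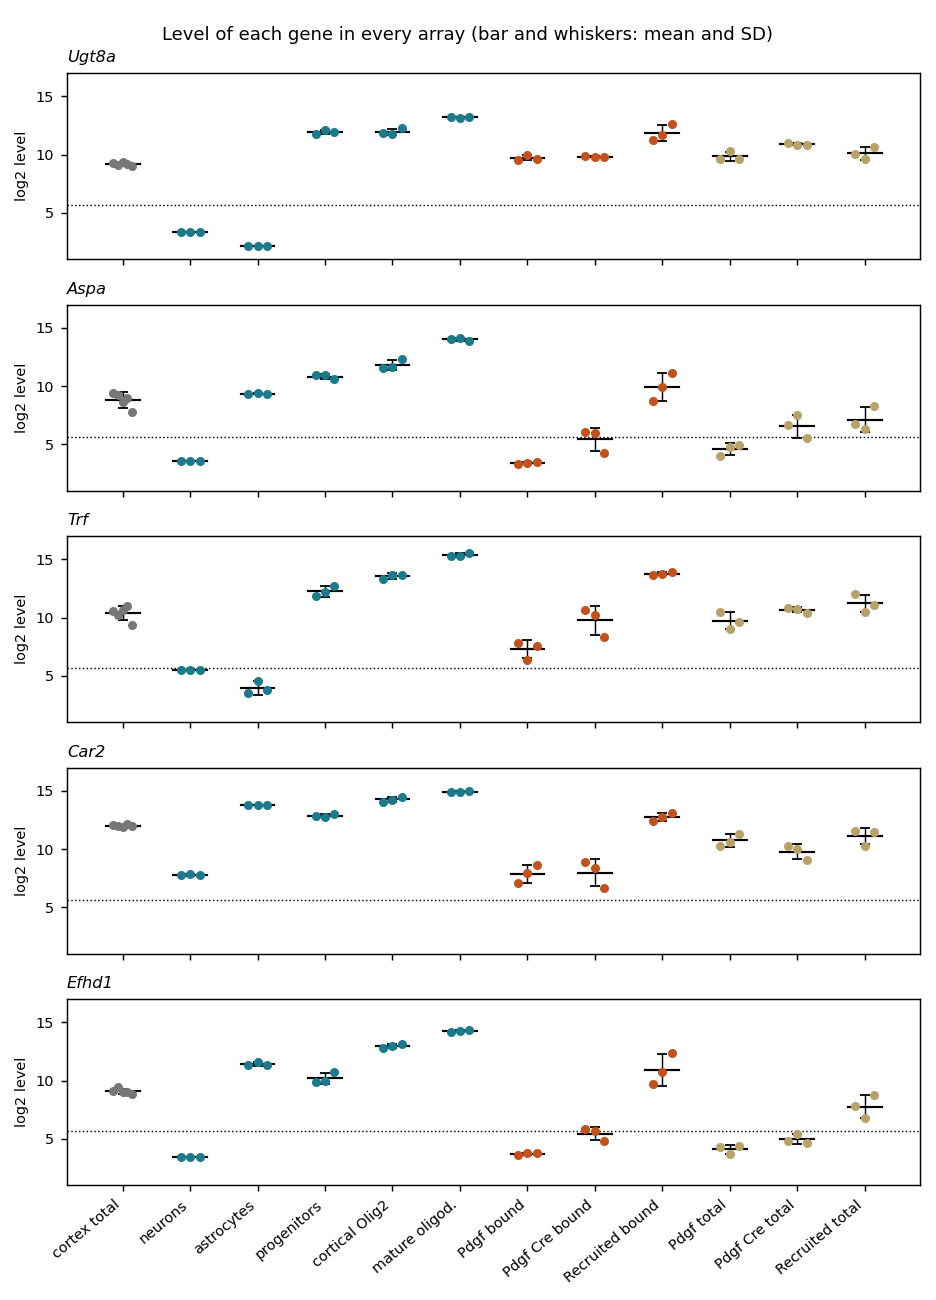
Level (log2, vertical axis) of Ugt8a, Aspa, Trf, Car2 and Efhd1 in each array (points) of the 12 groups, with the group mean and SD (n = 5 for cortex total RNA, n = 3 otherwise) and the dim limit of 5.64 dotted. Mature oligodendrocytes are the highest group in each panel, and astrocytes are dim for Ugt8a and Trf but not for Aspa, Car2 and Efhd1.

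Ugt8a, the galactolipid synthase, was highest in mature oligodendrocytes, at 13.24, 13.18 and 13.26 in the 3 arrays. Cortical Olig2 cells had 11.82, 11.77 and 12.28, and progenitors 11.79, 12.09 and 11.93, so these groups overlapped with each other and lay below mature oligodendrocytes. Cortex total RNA had 9.23, 9.11, 9.34, 9.19 and 9.04. Neurons, at 3.34, 3.35 and 3.34, and astrocytes, at 2.08 in all 3 arrays, were dim. In the tumours, bound RNA gave 9.54, 9.98 and 9.65 in Pdgf, 9.84, 9.82 and 9.80 in Pdgf Cre and 11.28, 11.67 and 12.66 in Recruited. Recruited cells thus overlapped with cortical Olig2 cells and progenitors, while both other models lay above every cortex total array and below every cortical Olig2 array. Total RNA gave 9.65, 10.32 and 9.58 in Pdgf, 10.96, 10.85 and 10.85 in Pdgf Cre and 10.05, 9.60 and 10.68 in Recruited. Of the 11 pairs of neighbours in the order of the 12 group means, 3 were called different. They were mature oligodendrocytes above cortical Olig2 cells (1.27 on the log2 scale, SE 0.24, limma adjusted p = 3.96e-05), cortex total RNA above neurons (5.84) and neurons above astrocytes, both dim. All groups from cortical Olig2 cells down to cortex total RNA followed each other in steps that were not called, the widest being Recruited bound RNA above Pdgf Cre total RNA by 0.98, just under 2-fold.

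Aspa, the enzyme that splits N-acetylaspartate, was also highest in mature oligodendrocytes, at 14.08, 14.15 and 13.88. Cortical Olig2 cells had 11.53, 11.63 and 12.33 and progenitors 10.92, 10.92 and 10.59. Astrocytes had 9.29, 9.41 and 9.33, overlapping with cortex total RNA, which spread over 9.39, 9.23, 8.64, 8.95 and 7.74. Neurons were dim at 3.53, 3.55 and 3.53. Pdgf bound RNA was dim as well, at 3.27, 3.40 and 3.47, and Pdgf Cre bound RNA stood at 6.02, 5.93 and 4.25, on both sides of the dim limit. Recruited bound RNA spread widely, over 8.74, 9.95 and 11.13. Total RNA had 3.98, 4.72 and 4.95 in Pdgf, 6.66, 7.48 and 5.50 in Pdgf Cre and 6.71, 6.29 and 8.30 in Recruited. Only 2 of 11 neighbouring steps were called: mature oligodendrocytes above cortical Olig2 cells (2.21, SE 0.53, limma adjusted p = 0.000702) and cortex total RNA above Recruited total RNA (1.69, SE 0.48, adjusted p = 0.00224), where the arrays overlapped.

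Trf, the iron carrier, was at 15.31, 15.31 and 15.55 in mature oligodendrocytes. The next group was Recruited bound RNA, at 13.63, 13.77 and 13.94, which overlapped with cortical Olig2 cells at 13.30, 13.69 and 13.70. Progenitors had 11.86, 12.17 and 12.74. Cortex total RNA had 10.55, 10.21, 10.66, 10.99 and 9.38. Neurons (5.48, 5.48 and 5.46) and astrocytes (3.50, 4.57 and 3.72) were dim. Pdgf bound RNA was at 7.83, 6.36 and 7.59, and Pdgf Cre bound RNA at 10.65, 10.25 and 8.34, so the 2 models did not overlap for Trf. Total RNA had 10.49, 9.02 and 9.62 in Pdgf, 10.85, 10.75 and 10.41 in Pdgf Cre and 12.02, 10.50 and 11.12 in Recruited. Here 5 of 11 steps were called. They were mature oligodendrocytes above Recruited bound RNA (1.61, SE 0.47, limma adjusted p = 0.00387), cortical Olig2 cells above progenitors (1.31), Pdgf total above Pdgf bound RNA (2.45), Pdgf bound RNA above neurons (1.79) and neurons above astrocytes (1.54, both dim).

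Car2, the carbonic anhydrase, had the narrowest range of the 5, with 7.17 log2 units between the highest and lowest group means against 10.65 to 11.46 for the others. Mature oligodendrocytes had 14.91, 14.93 and 15.01, cortical Olig2 cells 14.05, 14.25 and 14.50, astrocytes 13.76, 13.81 and 13.81 and progenitors 12.81, 12.80 and 13.04. For this gene astrocytes thus lay between the oligodendrocyte lineage groups, above progenitors without overlap. Cortex total RNA was even, at 12.08, 11.96, 11.89, 12.12 and 11.96. Neurons had 7.75, 7.87 and 7.73, above the dim limit, which no other member was in neurons. Bound RNA gave 7.10, 7.92 and 8.64 in Pdgf, 8.87, 8.36 and 6.63 in Pdgf Cre and 12.43, 12.72 and 13.14 in Recruited, so the first 2 tumour groups overlapped with neurons. Total RNA gave 10.30, 10.59 and 11.31 in Pdgf, 10.26, 9.98 and 9.05 in Pdgf Cre and 11.59, 10.28 and 11.50 in Recruited. Only 1 neighbouring step of 11 was called, Pdgf Cre total above Pdgf Cre bound RNA (1.81, SE 0.41, limma adjusted p = 0.000333), and it divided 9 groups with Car2 means of 9.76 or more from 3 with means of 7.95 or less.

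Efhd1, the mitochondrial calcium-binding protein, was at 14.17, 14.26 and 14.40 in mature oligodendrocytes and at 12.80, 12.97 and 13.18 in cortical Olig2 cells. Astrocytes followed at 11.35, 11.61 and 11.31 and progenitors, below every astrocyte array, at 9.90, 9.95 and 10.73. Cortex total RNA had 9.06, 9.46, 9.03, 9.01 and 8.87, and neurons were dim at 3.40, 3.42 and 3.40. Bound RNA of Pdgf was dim in each array, at 3.62, 3.72 and 3.72, that of Pdgf Cre close to the dim limit, at 5.79, 5.69 and 4.79, and that of Recruited spread over 9.66, 10.70 and 12.36. Total RNA was dim in Pdgf (4.23, 3.65 and 4.39) and Pdgf Cre (4.79, 5.44 and 4.61) and at 7.76, 6.74 and 8.79 in Recruited. Steps were called for 5 of 11 neighbours: mature oligodendrocytes above cortical Olig2 cells (1.29, SE 0.44, limma adjusted p = 0.0114), these above astrocytes (1.56), progenitors above cortex total RNA (1.11), cortex above Recruited total RNA (1.32) and Recruited total above Pdgf Cre bound RNA (2.34).

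The spread within 2 tumour groups ran the same way for several members. In Recruited bound RNA, replicate 1 was the lowest and replicate 3 the highest array for each of the 5 genes. Mog, a myelin surface protein gene, stood at 11.32, 14.38 and 15.07 in the same arrays. In Pdgf Cre bound RNA, replicate 3 was the lowest for each member, clearly so for Aspa, Trf, Car2 and Efhd1 and barely for Ugt8a (9.80 against 9.82 and 9.84). Mog there was at 9.06, 8.13 and 5.35. Over all tested genes the median SD was 0.30 in Recruited and 0.12 in Pdgf Cre bound RNA. The share of all genes with the same order of arrays was not counted. Whether the amount of oligodendrocyte RNA in these arrays sets the members' spread was not tested.

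In bound RNA of the cortical populations against cortex total RNA, the 5 members rose in mature oligodendrocytes and in cortical Olig2 cells, fell in neurons, and split in astrocytes. In mature oligodendrocytes 5 of 5 were higher, where 25.2% of all tested genes were (27.7% were lower). Ugt8a was 16.5-fold higher (log2 4.05, SE 0.21, limma adjusted p = 2.5e-16), Aspa 37.9-fold (5.24, SE 0.48, adjusted p = 5.4e-11), Trf 32.8-fold (5.03, SE 0.42, adjusted p = 1.09e-11), Car2 7.71-fold (2.95, SE 0.36, adjusted p = 2.5e-08) and Efhd1 36.5-fold (5.19, SE 0.39, adjusted p = 8.15e-13). Car2 had the smallest of the 5 differences. In cortical Olig2 cells 5 of 5 were again higher (29.5% of all genes were, and 26.6% lower), by 2.78 for Ugt8a, 3.04 for Aspa, 3.21 for Trf, 2.27 for Car2 and 3.90 for Efhd1, with adjusted p at most 2.09e-06.

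In progenitors 4 of 5 members were higher than in cortex total RNA, where 24.4% of all genes were (23.8% were lower). Ugt8a was 6.77-fold higher, Aspa 4.05-fold, Trf 3.73-fold and Efhd1 2.16-fold, and Car2 differed by 0.88 (95% interval 0.14 to 1.62), under the 2-fold limit. The Efhd1 call rested on replicate 3 of the progenitors: without it the difference was 0.84 and the adjusted p 0.0917. Myelin genes were present in the same arrays, with Mbp at 13.96 and Mog at 11.20 in progenitors against 12.79 and 9.19 in cortex total RNA, and 12 of 13 tested myelin markers were higher there. Whether mature cells among the progenitors carry part of the members' level was not tested.

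In neurons 5 of 5 were lower than in cortex total RNA, where 14.8% of all genes were (13.4% were higher). Car2, above the dim limit, was 18.6-fold lower (log2 -4.22, SE 0.36, limma adjusted p = 3.7e-11). The others were dim, so Ugt8a was at least 11.6-fold, Aspa at least 8.85-fold, Trf at least 26.2-fold and Efhd1 at least 10.9-fold lower.

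In astrocytes, 2 members were higher (31.1% of all genes were), 2 lower (29.8%) and 1 was not called. Efhd1 was 5.05-fold higher (log2 2.34, SE 0.39, limma adjusted p = 3.34e-06) and Car2 3.46-fold higher (1.79, SE 0.36, adjusted p = 5.47e-05). Ugt8a was at least 11.6-fold and Trf at least 26.2-fold lower, both dim in astrocytes. Aspa differed by 0.55 (95% interval -0.42 to 1.53, adjusted p = 0.289), and the sign turned to -0.054 with spike-in scaling. Of 13 measured myelin markers, 4 were above the dim limit in these arrays. Mog was at 2.47, Mag at 2.30 and Mobp at 2.08, all dim, but Cnp was at 9.48 against 9.23 in cortex total RNA. Compared with cortex total RNA, 11 of 13 myelin markers were lower and 13 of 13 astrocyte markers higher. Olig2 was at 8.57 against 6.18. Of 8 committed precursor markers 4 were higher and 3 lower, and of 9 progenitor markers 4 were higher and 3 lower. The part of these in the members' differences was not tested.

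**Figure D2:**
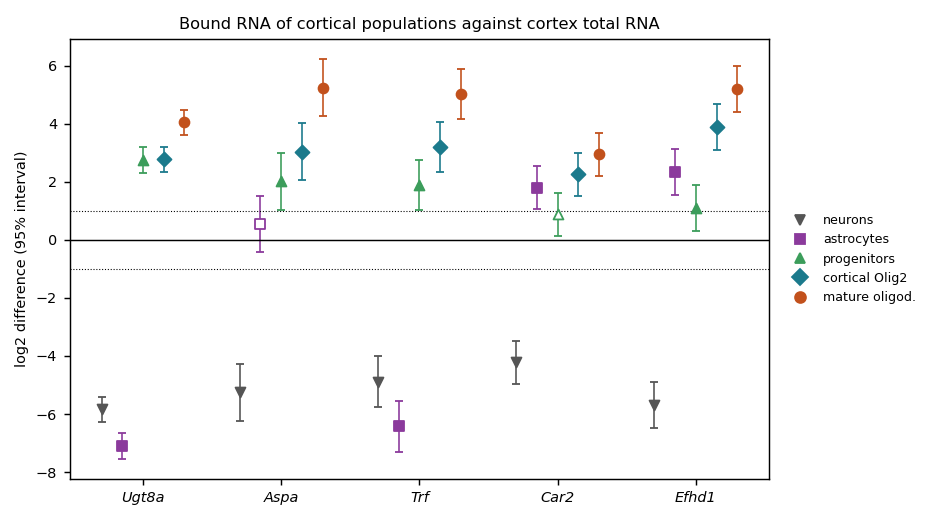
Log2 difference between bound RNA of each cortical population and cortex total RNA (vertical axis, bars 95% intervals of the limma fit) for the 5 genes, filled where called and open where not, with the 2-fold limits dotted. Neurons lie below 0 for all 5 and mature oligodendrocytes above, while astrocytes lie below 0 for Ugt8a and Trf and above 2-fold for Car2 and Efhd1. Differences to dim groups depend on values under the dim limit.

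Between stages of the lineage, all 5 members were lower in progenitors than in mature oligodendrocytes, where 19.9% of all genes were (18.8% were higher). Efhd1 was 16.9-fold lower (log2 -4.08, SE 0.44, limma adjusted p = 2.72e-09), Aspa 9.35-fold, Trf 8.77-fold, Car2 4.19-fold and Ugt8a 2.44-fold (-1.29, SE 0.24, adjusted p = 3.33e-05). Arrays of the 2 stages did not overlap for any member, though how many of all genes did not overlap was not counted. The differences between members in size were not tested. Cortical Olig2 cells, which can hold both stages, had 4 of 5 members lower than mature oligodendrocytes (20.1% of all genes were, and 19.0% higher) and Car2 at -0.68 (adjusted p = 0.148, 95% interval -1.51 to 0.15). Against progenitors, Efhd1 (2.79), Car2 (1.39) and Trf (1.31) were higher in cortical Olig2 cells, where 18.3% of genes were (18.8% were lower). Astrocyte markers were higher in 10 of 13 and lower in none between the same groups, myelin markers higher in 11 of 13 and neuron markers lower in 8 of 13, and their part in the members' differences was not tested. Aspa, at 1.02 (adjusted p = 0.0995), and Ugt8a, at 0.02, were not called. The Trf call was lost without progenitor replicate 1, Olig2 replicate 2 or Olig2 replicate 3, with differences from 1.11 to 1.55 and an adjusted p up to 0.0793 over the arrays left out.

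In bound RNA of Olig2 cells, the Pdgf and Pdgf Cre tumours had all 5 members lower than cortical Olig2 cells, and the Recruited tumour had 3 of 5 lower. These comparisons share the 3 cortical Olig2 arrays. In Pdgf, 5 of 5 were lower, where 16.0% of all genes were (16.0% were higher). Efhd1 was at least 162-fold lower, Car2 83.4-fold (log2 -6.38, SE 0.41, limma adjusted p = 6.01e-14), Trf 79.0-fold (-6.30, SE 0.47, adjusted p = 2.59e-12) and Aspa at least 72.7-fold, but Ugt8a only 4.70-fold (-2.23, SE 0.24, adjusted p = 4.6e-09). In Pdgf Cre, 5 of 5 were lower, where 18.3% of all genes were (17.7% were higher). Efhd1 was at least 155-fold, Car2 79.6-fold, Aspa at least 62.3-fold, Trf 14.1-fold and Ugt8a 4.39-fold lower. Ugt8a stayed well above the dim limit in both tumours, while Aspa and Efhd1 had dim means in both. Without Pdgf Cre replicate 3, the lowest array there, the log2 differences were -3.11 for Trf, -5.65 for Car2 and -5.85 for Aspa, all still called.

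In Recruited cells, 3 of 5 were lower than in cortical Olig2 cells, where 14.6% of all genes were (12.9% were higher). Efhd1 was 4.22-fold lower (log2 -2.08, SE 0.44, limma adjusted p = 0.000227), Aspa 3.70-fold (-1.89, SE 0.53, adjusted p = 0.00407) and Car2 2.84-fold (-1.51, SE 0.41, adjusted p = 0.00283). Without Recruited replicate 1 Aspa was at -1.29 and no longer called (adjusted p = 0.0562), and fitted on the 6 arrays alone neither Aspa (adjusted p = 0.0766) nor Efhd1 (adjusted p = 0.0729) was. Efhd1 was at -1.45 without replicate 1 and -2.80 without replicate 3, both called. Ugt8a differed by -0.08 (95% interval -0.58 to 0.41) and Trf by 0.22 (-0.76 to 1.19). The sign of Ugt8a turned with the deposited values (0.25) and with other arrays left out.

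Myelin markers moved beside these differences. All 13 tested were lower in Pdgf and in Pdgf Cre than in cortical Olig2 cells, and 4 of 13 in Recruited. Their log2 summed level ranged from 17.1 to 17.2 in cortical Olig2 cells, 12.1 to 12.7 in Pdgf, 11.8 to 13.0 in Pdgf Cre and 15.4 to 17.4 in Recruited. Mog was at 13.76 in cortical Olig2 cells, 5.08 in Pdgf (dim), 7.51 in Pdgf Cre and 13.59 in Recruited. Astrocyte markers did so too, with 12 of 13 lower in Pdgf, 10 in Pdgf Cre, and 7 higher and 2 lower in Recruited, and Gja1, an astrocyte connexin, at 12.06, 7.04, 7.55 and 13.41 in the same order of groups. Olig2 itself was at 12.47, 12.39, 12.55 and 12.70. The part of mature oligodendrocytes or astrocytes in the members' differences was not tested.

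**Figure D3:**
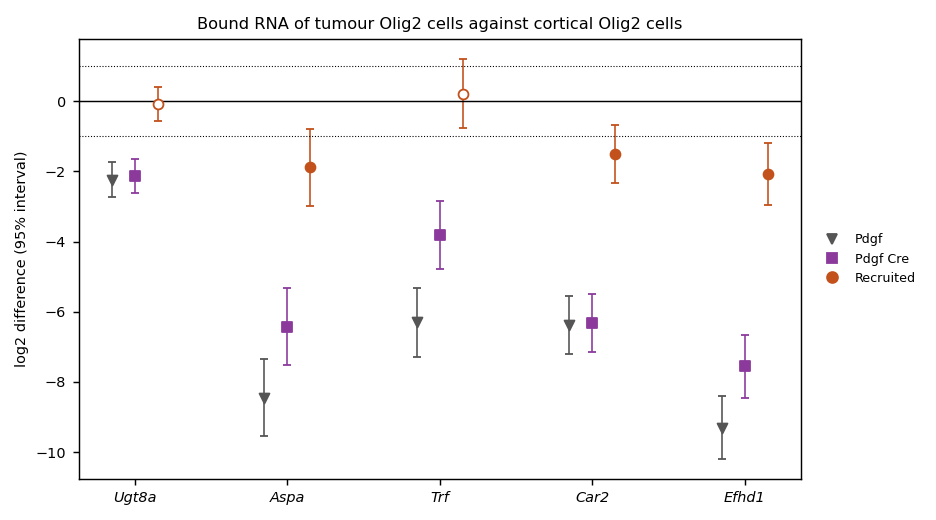
Log2 difference between bound RNA of Olig2 cells of each tumour model and of cortical Olig2 cells (vertical axis, bars 95% intervals of the limma fit), filled where called, with 2-fold limits dotted. The Pdgf and Pdgf Cre points lie below -2 for every gene, and the Recruited points between -2.08 and 0.22. Values for Aspa and Efhd1 in Pdgf and Pdgf Cre depend on levels under the dim limit.

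Set against cortical progenitors instead, the same arrays of tumour cells gave lower values for 5 of 5 members in Pdgf, where 19.9% of all genes were lower, and 5 of 5 in Pdgf Cre, where 22.5% were. Ugt8a was 4.65-fold and 4.34-fold lower, Trf 32.0-fold and 5.70-fold, Car2 31.9-fold and 30.5-fold, Aspa at least 35.9-fold and at least 30.7-fold and Efhd1 at least 23.5-fold and at least 22.4-fold lower, in Pdgf and Pdgf Cre in that order. In Recruited cells Trf was 2.87-fold higher than in progenitors (log2 1.52, SE 0.47, limma adjusted p = 0.00708, with 17.1% of all genes higher and 18.4% lower), and the other members differed by -0.87 (Aspa) to 0.71 (Efhd1) and were not called. Without Pdgf Cre replicate 3, Trf there was at -1.81, Car2 at -4.27 and Aspa at -4.83. Myelin markers were lower than in progenitors in 11 of 13 in Pdgf and 10 of 13 in Pdgf Cre. In Recruited 6 of 13 myelin and 10 of 13 astrocyte markers were higher and none lower, and the part of these in the members' differences was not tested. With a separate spread for each group the Recruited difference of Trf was not called (adjusted p = 0.0875).

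Between the models, all 5 members were higher in Recruited than in Pdgf cells, where 12.8% of all genes were (13.0% were lower), and than in Pdgf Cre cells, where 17.5% were (17.0% were lower). Trf was 91.8-fold higher than in Pdgf (log2 6.52, SE 0.47, limma adjusted p = 1.5e-12) and 16.4-fold higher than in Pdgf Cre. Car2 was 29.4-fold and 28.0-fold higher, Efhd1 at least 38.4-fold and at least 36.7-fold, Aspa at least 19.6-fold and at least 16.8-fold, and Ugt8a 4.44-fold and 4.14-fold. The groups did not overlap for any member, and the share of all genes without overlap was not counted. Without Recruited replicate 3, Efhd1 was at 6.50 against Pdgf and 4.76 against Pdgf Cre and Aspa at 5.96 and 3.94. Without Recruited replicate 1, Efhd1 was at 7.84 and 6.10 and Aspa at 7.16 and 5.14. Without Pdgf Cre replicate 3, Trf was at 3.33 and Car2 at 4.15 against Pdgf Cre. In the same comparisons 13 of 13 myelin markers and 11 of 13 astrocyte markers were higher in Recruited cells. Between Pdgf Cre and Pdgf, Trf was 5.60-fold higher in Pdgf Cre (2.49, SE 0.47, adjusted p = 0.000109, with 7.77% of all genes higher), at 3.19 without Pdgf Cre replicate 3, and lost its call when fitted on the 6 arrays alone (adjusted p = 0.059). Aspa (2.02) and Efhd1 (1.74) were also called higher there, but both groups had dim means, so no fold is given. Ugt8a differed by 0.10 (95% interval -0.39 to 0.59) and Car2 by 0.07 (-0.76 to 0.90), and both signs turned with the deposited values.

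Bound against total RNA of the same tumours asks whether the Olig2 cells carry a transcript above their tissue. In Recruited tumours, 5 of 5 members were higher in bound RNA, where 24.1% of all genes were and 20.2% were lower: Efhd1 8.85-fold (log2 3.15, SE 0.44, limma adjusted p = 3.09e-07), Aspa 7.17-fold (2.84, SE 0.53, adjusted p = 3.14e-05), Trf 5.93-fold (2.57, SE 0.47, adjusted p = 2.64e-05), Ugt8a 3.39-fold (1.76, SE 0.24, adjusted p = 2.4e-07) and Car2 3.11-fold (1.64, SE 0.41, adjusted p = 0.000818). With a separate spread for each group, Aspa (adjusted p = 0.0677), Trf (adjusted p = 0.12) and Car2 (adjusted p = 0.223) were not called. In each of the 3 pairs of arrays of the same number, bound RNA was the higher one for every member. How many of all genes were higher in all 3 pairs was not counted. Efhd1 ranged from 2.42, without bound replicate 3, to 3.77, without bound replicate 1, and Aspa from 2.25 to 3.44 without the same arrays, all called. Beside the members, 11 of 13 myelin markers and 5 of 13 astrocyte markers were higher in bound RNA and none lower, while 13 of 13 neuron, 8 of 8 microglia and 8 of 8 pericyte markers were lower. Their part was not tested.

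In Pdgf tumours, 2 members were lower in bound RNA, where 15.3% of genes were, and none was higher, as 16.9% of genes were. Car2 was 7.21-fold lower (log2 -2.85, SE 0.41, limma adjusted p = 7.4e-07) and Trf 5.47-fold lower (-2.45, SE 0.47, adjusted p = 6.69e-05). Ugt8a differed by -0.13 (95% interval -0.62 to 0.36). Aspa, at -1.17, was not called (adjusted p = 0.0644) but was called with the pair as a block (adjusted p = 0.000772). It was dim on both sides, as was Efhd1. In Pdgf Cre tumours Car2 was 3.51-fold lower (-1.81, SE 0.41, adjusted p = 0.000333) and Ugt8a 2.09-fold lower (-1.07, SE 0.24, adjusted p = 0.000351), where 18.1% of genes were lower and 20.0% higher. Aspa, at -1.15, was called with the pair as a block (adjusted p = 0.000804) and not without (adjusted p = 0.0625), and Trf (-0.92) stayed under 2-fold with it. Ugt8a was not called with spike-in scaling (-0.93), nor Car2 when fitted on the 6 arrays alone (adjusted p = 0.0668). Car2 was at -1.15 without bound replicate 3. In bound against total RNA, 7 of 13 astrocyte markers were lower in both models, while 1 was higher in Pdgf and 2 in Pdgf Cre. Gja1, among the lower ones, was at 7.04 against 11.18 in Pdgf and 7.55 against 11.50 in Pdgf Cre. All 8 of 8 microglia markers were lower in both models. Of 13 myelin markers, 1 was higher and 2 lower in Pdgf and 1 higher and 1 lower in Pdgf Cre. Ttr, the choroid plexus gene, was at 12.39, 2.34 and 14.32 in total and 7.43, 2.75 and 8.54 in bound RNA of Pdgf. In Pdgf Cre its means were 14.28 and 8.87. Of 5 tested choroid plexus and ependymal markers, 0 were called in Pdgf, and 3 were lower and 0 higher in Pdgf Cre. The part of other cell types in the Car2 and Trf differences was not tested.

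**Figure D4:**
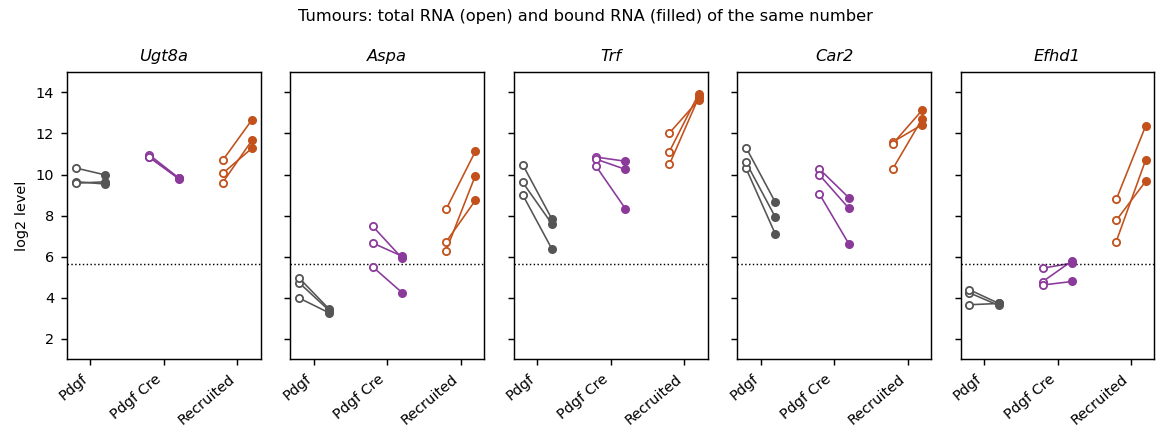
Log2 level (vertical axis) of the 5 genes in total RNA (open) and bound RNA (filled) of the 3 tumour models, with a line between arrays of the same number (n = 3 pairs a model) and the dim limit of 5.64 dotted. Lines go up in Recruited tumours for each gene, and down for Car2 in Pdgf and Pdgf Cre.

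In total RNA of tumours against cortex total RNA, Aspa and Efhd1 were lower in each of the 3 models and Trf in none. These comparisons share the 5 cortex arrays. In Pdgf, 3 members were lower (25.5% of all genes were): Efhd1 at least 10.9-fold, Aspa at least 8.85-fold and Car2 2.41-fold. In Pdgf Cre, 3 were lower (25.0% of all genes): Efhd1 at least 10.9-fold, Aspa 4.72-fold and Car2 4.71-fold, while Ugt8a was 3.27-fold higher (log2 1.71, SE 0.21, limma adjusted p = 4.4e-08, with 22.8% of all genes higher). In Recruited, 2 were lower (26.4% of all genes): Aspa 3.23-fold (-1.69, SE 0.48, adjusted p = 0.00224) and Efhd1 2.51-fold (-1.32, SE 0.39, adjusted p = 0.00321). Efhd1 there was not called without Recruited total replicate 2 (-0.81, adjusted p = 0.0767), and with the deposited values neither Aspa (-0.96) nor Efhd1 (-0.69) was. Aspa was at -2.29 without Recruited total replicate 3. Trf differed by -0.65 in Pdgf, 0.31 in Pdgf Cre and 0.86 in Recruited, none called. Microglia markers were higher in each tumour, with 8 of 8 tested in each, and neuron markers lower in 13 of 13, 13 of 13 and 8 of 13, in Pdgf, Pdgf Cre and Recruited. Myelin markers were lower in 9 of 13, 7 of 13 and 3 of 13, and higher in 0, 0 and 5. Of 5 tested choroid plexus and ependymal markers, 0 were higher and 3 lower in Pdgf, 1 and 1 in Pdgf Cre and 2 and 1 in Recruited. Ttr alone was at 9.68, 14.28 and 13.45 (SD 6.43, 0.67 and 2.66) against 6.01 (SD 3.36) in cortex total RNA. Its arrays thus spread widely in each of these groups but Pdgf Cre. The part of this change of markers in the members' differences was not tested.

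The bound-to-total difference itself was compared with that of cortical Olig2 cells. It was lower in Pdgf and in Pdgf Cre for 5 of 5 members, where 23.5% and 22.5% of all genes were lower and 23.2% and 22.7% higher. Myelin markers were lower in 12 of 13 and 13 of 13 in the same comparison, committed precursor markers in 8 of 8 and astrocyte markers in 10 of 13 in both, and their part was not tested. In Pdgf it was lower by 5.66 log2 units for Trf (SE 0.64, limma adjusted p = 9.76e-09), 5.12 for Car2 and 2.90 for Ugt8a, and in Pdgf Cre by 4.13, 4.08 and 3.84. For Aspa and Efhd1 the fitted values were -4.21 and -4.30 in Pdgf and -4.19 and -3.42 in Pdgf Cre. With every array under the dim limit set to it, they were -3.04 and -3.90 in Pdgf and -3.77 and -3.83 in Pdgf Cre. These are no bounds, since bound and total RNA were both dim for Aspa in Pdgf and for Efhd1 in both models. Without Pdgf Cre bound replicate 3 they were -3.43 for Trf, -3.42 for Car2 and, with no limit set, -3.61 for Aspa. In Recruited only Ugt8a was called (-1.02, SE 0.32, adjusted p = 0.00853, with 20.8% of all genes lower and 21.3% higher). That call stood at the 2-fold limit: with the pair as a block it was -0.97, and it was lost in 6 of 14 fits that left out an array. The others differed by -0.20 to -0.75.

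Genes of the same pathways were counted from lists written beside the members, members left out. The galactolipid and sphingolipid list, 21 tested genes, had 13 higher and 3 lower in mature oligodendrocytes than in cortex total RNA (25.2% and 27.7% of all genes), with a median difference of 1.07 against -0.04 over all tested genes. Cers2, which makes the very long chain ceramides of myelin, was 45.5-fold higher, and the fatty acid elongases Elovl7 and Elovl1 22.9-fold and 21.4-fold. Fa2h, which hydroxylates the fatty acids of galactolipids, went from 9.05 to 12.85 (called), and Gal3st1 from 6.94 to 10.59 (called). Galc, which degrades galactocerebroside, was at 9.15 in mature oligodendrocytes and 7.12 in cortex total RNA (called). Ugcg, the glucosylceramide synthase, was dim in all 12 groups. St3gal5, which starts the ganglioside pathway, was at least 9.19-fold lower. In the tumours, 6 of 21 were lower and 1 higher in Pdgf than in cortical Olig2 cells, 8 lower and 0 higher in Pdgf Cre and 2 lower and 2 higher in Recruited. Over all tested genes, here and for the lists that follow, 16.0% were lower and 16.0% higher in Pdgf, 18.3% and 17.7% in Pdgf Cre and 14.6% and 12.9% in Recruited. Elovl7 was at least 18.8-fold lower in Pdgf and 12.7-fold in Pdgf Cre, and Fa2h was at 9.68 in Pdgf, 9.19 in Pdgf Cre and 11.14 in Recruited, against 11.61 in cortical Olig2 cells. Gal3st1 was lower in each of the 3, 2.26-fold in Pdgf, 6.51-fold in Pdgf Cre and 3.37-fold in Recruited, from 11.52 in cortical Olig2 cells.

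The N-acetylaspartate and acetate list, 13 tested genes, had 6 higher and 4 lower in mature oligodendrocytes than in cortex total RNA, with a median of 0.94 (0.65 with dim arrays at the limit). Nat8l, the neuronal synthase of N-acetylaspartate, was 4.42-fold lower there and stood at 12.05 in cortex total RNA and 11.51 in neurons. Slc13a3, a dicarboxylate transporter that takes up N-acetylaspartate, was at 10.69 in astrocytes and 8.42 in cortex total RNA, against 7.06 in mature oligodendrocytes. Acss2, which makes acetyl-CoA from acetate, was at 10.73 in mature oligodendrocytes, 10.97 in cortical Olig2 cells and 10.86 in astrocytes, and 9.31 in cortex total RNA. Folh1, a peptidase of N-acetylaspartylglutamate, was above the dim limit in astrocytes (6.97), mature oligodendrocytes (6.29) and Recruited cells (6.24) and in no other group mean. In the tumours 7 of 13 were lower in Pdgf than in cortical Olig2 cells, 8 in Pdgf Cre and 3 in Recruited, with 0, 0 and 1 higher. Grm3, a glutamate receptor that binds N-acetylaspartylglutamate, was at least 11.9-fold lower in Pdgf and in Pdgf Cre. In Recruited tumours Acss2 was 7.83-fold higher in bound than in total RNA.

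The iron list, 15 tested genes, did not follow Trf. In mature oligodendrocytes 2 were higher and 4 lower than in cortex total RNA, where 25.2% and 27.7% of all genes were, with a median of 0. Slc11a2, an importer of ferrous iron, was at least 2.94-fold higher, and Slc25a37, the mitochondrial iron importer, at least 5.63-fold lower. Fth1, the ferritin heavy chain, was at 12.90 in cortex total RNA, 12.06 in mature oligodendrocytes and 9.53 in progenitors. Tfrc, the transferrin receptor, was dim in each group (2.08 to 2.22) and was not tested, and Ftl1 was not among the measured symbols. Slc40a1, the iron exporter ferroportin, was above the dim limit in tumour total RNA only (7.85 in Pdgf, 7.28 in Pdgf Cre and 6.19 in Recruited). Cp, ceruloplasmin, was dim in each group mean but that of Pdgf Cre bound RNA (5.75). In tumour cells against cortical Olig2 cells, 5 of 15 were higher and 1 lower in Pdgf, 3 and 1 in Pdgf Cre and 4 and 0 in Recruited, while Trf was lower in the first 2. Hmox1, heme oxygenase, was at least 3.76-fold higher in Pdgf Cre, and Heph, a ferroxidase, at least 3.08-fold higher in Recruited. In total RNA against cortex, 8, 5 and 10 of 15 were higher and 1 lower in each model. Over all tested genes 25.0%, 22.8% and 23.7% were higher and 25.5%, 25.0% and 26.4% lower, in Pdgf, Pdgf Cre and Recruited.

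Among carbonic anhydrases and bicarbonate transporters, 12 tested genes, 2 were higher and 10 lower in mature oligodendrocytes than in cortex total RNA, with a median of -2.16 (-1.06 with dim arrays at the limit). The 2 were Car14, a membrane-bound carbonic anhydrase, at least 63.9-fold, and Slc4a2, an anion exchanger, 23.7-fold. Car10 and Slc4a3 were 10.7-fold and 9.71-fold lower. Car14 was dim in astrocytes (3.28), where Car2 was high. Car8, a relative of the carbonic anhydrases without their activity, was at least 18.6-fold higher in astrocytes than in cortex total RNA and dim in mature oligodendrocytes (2.23). Slc4a4, a sodium bicarbonate cotransporter of astrocytes, was at 11.58 in astrocytes and 6.53 in mature oligodendrocytes. Car4, a membrane-anchored form, was at 8.41 in neurons and 6.55 in cortex total RNA and dim in the other groups. In tumour cells Car14 was at least 15.6-fold lower in Pdgf and in Pdgf Cre than in cortical Olig2 cells, and at 9.38 in Recruited against 9.60. Slc4a2 was 8.27-fold, 7.77-fold and 2.31-fold lower in the 3 models. Of the list, 4 were lower in each model and 1, 0 and 0 higher.

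The mitochondrial calcium list, 15 tested genes of which Slc25a12 and Slc25a13 also stand in the N-acetylaspartate list, had 3 higher and 2 lower in mature oligodendrocytes than in cortex total RNA, with a median of 0.28. Micu2, a regulator of the calcium uniporter, was 9.25-fold higher. Slc25a13, an aspartate-glutamate carrier, was at least 3.42-fold higher and Slc25a23, a calcium-dependent carrier, 7.48-fold lower. Efhd2, the paralog of Efhd1, was at 14.29 in cortex total RNA, 14.03 in neurons and 14.01 in astrocytes, and 2.50-fold lower than cortex total RNA in mature oligodendrocytes. Efhd2 was also lower in tumour cells than in cortical Olig2 cells, 15.7-fold in Pdgf, by log2 -3.33 in Pdgf Cre and 2.10-fold in Recruited. Mcu, the uniporter pore, was dim in each group and not tested. In Pdgf and Recruited 2 and 3 of 15 were lower and 0 higher, and in Pdgf Cre 4 and 0, with 16.0%, 14.6% and 18.3% of all genes lower.

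**Figure D5:**
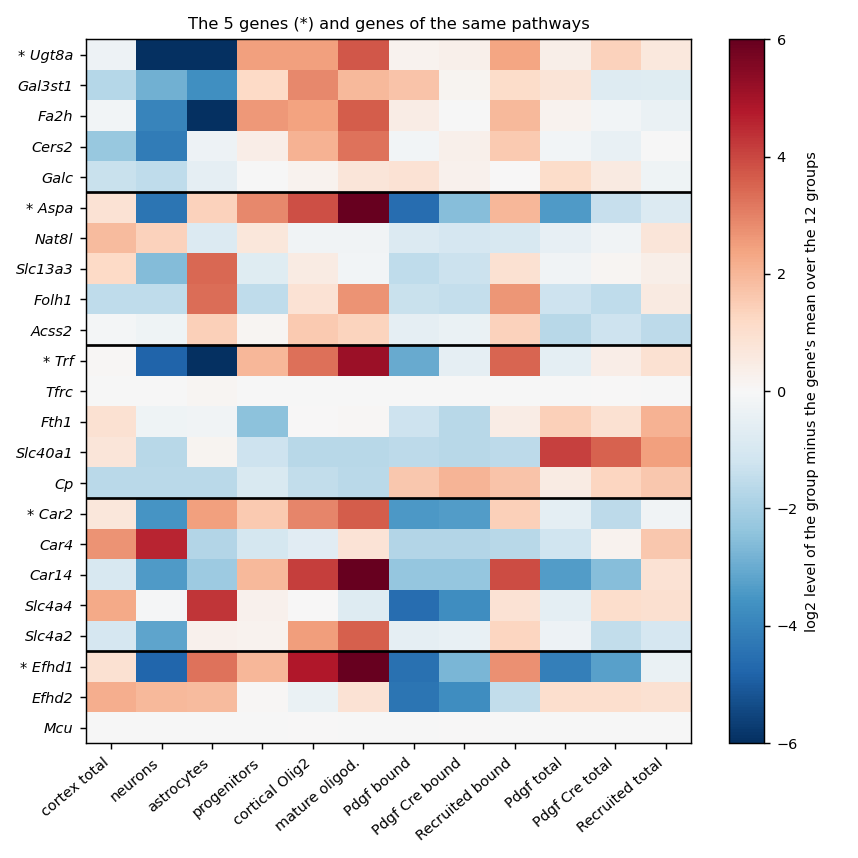
Mean log2 level of each group minus the gene's own mean over the 12 groups (colour, blue to red, capped at -6 and 6) for the 5 genes (starred) and the named partners of each pathway, 1 row a gene and 1 column a group. Fa2h and Car14 are red in the oligodendrocyte columns as Ugt8a and Car2 are, and Tfrc and Mcu, dim in every group, show almost none.

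Over the 12 group means, the members formed 2 sets by the likeness of their levels, a grouping made after the values were seen. Aspa and Efhd1 had a Pearson correlation of 0.973, Car2 and Efhd1 of 0.943 and Aspa and Car2 of 0.932, and Ugt8a and Trf of 0.920. Across the sets the values ran from 0.282 (Ugt8a and Car2) to 0.663 (Aspa and Trf). These are descriptions over 12 means that share arrays and a common floor for dim values. Among all tested genes, Ugt8a was most like Plxnb3 (0.984), Fa2h (0.972) and Trim59 (0.967), and Trf most like Myrf (0.975), the transcription factor of myelin genes, Mbp (0.971) and Cpm (0.969). Aspa was most like Efhd1 (0.973), Gpr37 (0.964) and Nkx6-2 (0.959), Efhd1 most like Gpr37 (0.976), Aspa (0.973) and Fgfr2 (0.964), and Car2 most like Frmd4b (0.943), Efhd1 (0.943) and Ttyh2 (0.940).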

How the data were processed

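Bound and total RNA of 12 groups was measured on 38 arrays. The deposited values are log2 expression values that the authors made with GCRMA, per the submitters' processing notes (version and build not given in the sources used here). Arrays of a group share their lowest value, which differs between groups, so the values may have been made group by group, a step no source used here states. The 38 arrays were therefore quantile normalized together. That step aligns whole arrays only. If values were made group by group, a shift of a single probe set would remain and cannot be told apart from a difference between groups. Of 16395 probe sets, 64 controls and 687 without a gene symbol were left out; 15617 of 15644 genes matched RefSeq. A gene was tested if over log2 50 in at least 3 arrays (9799 genes). limma 3.58.1 in R 4.3.3 fitted all 12 groups (26 residual degrees of freedom) with Benjamini-Hochberg adjustment over all tested genes in each of 26 comparisons and 66 pairs of groups. Precision is limited by array number.

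Arrays of the same number deviated together in each tumour model (correlation between bound and total RNA 0.266 to 0.626). The main fit leaves this pairing out, and pairs enter only in the replicate blocks, which changed calls of Aspa. Numbers of cortical bound RNA did not pair with those of cortex total RNA (-0.19 to 0.21). Pairing between cortical bound populations was not checked. No 2 arrays were identical. Alternatives were the deposited values, spike-in scaling, dim filters, the arrays compared alone, group weights, replicate blocks and each array left out. The text names the 5 members, up to 4 called genes of largest difference per pathway list, the preset pathway partners and the 3 most similar genes per member; Mog, Mbp and other marker genes and Car8 were named after their values were seen. The members and lists were chosen with earlier results of these data known. The code was tested on simulated data. Promoters were read with Python 3.11.15.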

Additional observations from a re-analysis of the deposited data

Results flagged for a closer look

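The difference between bound and total RNA differed between tumour and cortical Olig2 cells, by the interaction term of the limma fit, for 11 combinations of member and model. The values, tumour minus cortex on the log2 scale, were -2.90 for Ugt8a, -4.21 for Aspa, -5.66 for Trf, -5.12 for Car2 and -4.30 for Efhd1 in Pdgf. In Pdgf Cre they were -3.84 for Ugt8a, -4.19 for Aspa, -4.13 for Trf, -4.08 for Car2 and -3.42 for Efhd1. In Recruited the value was -1.02 for Ugt8a. Values of Aspa and Efhd1 in Pdgf and Pdgf Cre rest on dim means.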

How the results depend on the processing

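Of 130 member differences, 101 were called, and dim filters changed no call. A random replicate block, fitted for 60 differences between tumour and cortex groups or between models, changed none of those 60. With the deposited values 4768 genes were called in neurons against cortex total RNA, against 2765. Counts of called genes in the pathway lists moved by over 1.5 times in 56 of 910 results under other settings and in 25 of 980 with an array left out. Those in mature oligodendrocytes, and in Pdgf and Pdgf Cre against cortical Olig2 cells, did not. Of those in Recruited against cortical Olig2 cells, the galactolipid list had 4 called, 2 on the arrays compared alone and 7 without Recruited bound replicate 3, the N-acetylaspartate list 4, and 2 on the arrays compared alone, the iron list 4, and 2 with a dim limit of 100, and the bicarbonate list 4, with 2 by the deposited values, 1 by spike-in scaling and 2 without Recruited bound replicate 3 or cortical Olig2 replicate 2. The iron list in Recruited total RNA had 11 called, and 7 with group weights or without total replicate 1. Called neighbours of Car2 were 5 by the deposited values and 2 by spike-in scaling against 1, and those of Aspa 4 by spike-in scaling against 2. The cause of the changes given here was not tested.

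With the deposited values, Efhd1 in progenitors against cortex total RNA was 0.92, Car2 in Olig2 against mature cells -1.05, bound against total RNA -2.73 (Aspa) and -2.07 (Efhd1) in Pdgf and -1.91 and -0.67 in Pdgf Cre, Recruited against Olig2 cells 0.25 (Ugt8a), Recruited against progenitors 0.42 (Ugt8a), 0.43 (Car2) and 1.10 (Efhd1), Pdgf Cre against Pdgf -0.25 (Ugt8a) and -0.23 (Car2), and Recruited against cortex total RNA 1.30 (Ugt8a), -0.96 (Aspa), 1.14 (Trf) and -0.69 (Efhd1). With spike-in scaling, Aspa in astrocytes was -0.054, Efhd1 in progenitors 0.92, Car2 in Olig2 against mature cells -1.32, bound against total RNA -2.63 (Aspa) and -1.97 (Efhd1) in Pdgf and -0.93 (Ugt8a), -1.73 (Aspa) and -0.49 (Efhd1) in Pdgf Cre, Efhd1 in Recruited total RNA -1.07 and the Ugt8a interaction in Recruited -0.98.

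On the arrays compared alone, Aspa was called in Olig2 cells against progenitors (1.02) and in Pdgf bound against total RNA (-1.17), and Car2 in Pdgf Cre bound against total RNA (-1.81), Aspa (-1.89) and Efhd1 (-2.08) in Recruited against Olig2 cells, Trf in Pdgf Cre against Pdgf (2.49) and the Ugt8a interaction (-1.02) were not. With group weights, Aspa was called in Olig2 cells against progenitors (1.02) and in Pdgf Cre bound against total RNA (-1.15), and Recruited bound against total RNA of Aspa (2.84), Trf (2.57) and Car2 (1.64), Trf against progenitors (1.52), total RNA of Aspa (-1.69) and Efhd1 (-1.32) and the Ugt8a interaction (-1.02) were not. With the replicate number as a fixed block, Aspa was called in Olig2 cells against progenitors (1.02), where pairing by number was not checked. Aspa was also called in Pdgf (-1.17) and Pdgf Cre (-1.15) bound against total RNA. The Ugt8a interaction in Recruited was -0.97 and that of Aspa 0.10. The fixed block, fitted for 70 differences, changed no other of those 70 calls.

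Leaving out 1 array changed a call or sign in bound against total RNA for Aspa in Pdgf (-1.46 to -0.97) and Pdgf Cre (-1.67 to -0.57), Trf in Pdgf Cre (-1.38 to -0.22) and Ugt8a in Pdgf (-0.26 to 0.11). In Recruited against Olig2 cells it did so for Aspa (-2.48 to -1.29) and Ugt8a (-0.48 to 0.21), and against progenitors for Aspa (-1.47 to -0.27), Car2 (-0.31 to 0.046), Efhd1 (-0.015 to 1.33) and Ugt8a (-0.46 to 0.23). In the Recruited interaction it did for Aspa (-0.79 to 0.40), Efhd1 (-1.48 to -0.13) and Ugt8a (-1.41 to -0.72), and in total RNA for Car2 (-1.11 to -0.46), Efhd1 (-1.84 to -0.81), Trf (0.45 to 1.21) and Ugt8a (0.64 to 1.19). It also did for Car2 in Pdgf Cre against Pdgf (-0.39 to 0.73), Efhd1 in progenitors (0.84 to 1.25), and Trf (1.11 to 1.55) and Ugt8a (-0.15 to 0.11) in Olig2 cells against progenitors. Signal under the dim limit leaves no fold for Aspa and Efhd1 between Pdgf and Pdgf Cre bound RNA, and a bound against brighter groups.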
